A study of Solanum tuberosum with 9 samples.

Results

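The genes 16R, 34G and 35G encode 14-3-3 proteins of potato, and their transcripts were measured in stolons, the below-ground side shoots that form tubers at their tips. They were taken by name from the deposited tables, which gave 3 of 25702 genes. All 3 passed the filter on low counts. The plants were of the variety Kexin 13 and were grown under nitrogen deficiency (AN0), conventional nitrogen supply (AN1) or nitrogen excess (AN2), with 3 RNA-seq libraries for each treatment. The nitrogen doses, the growth conditions, the stolon stage and whether a library came from 1 plant or a pool are not given in the labels. They also do not say that replicate libraries were made from different plants, so the p-values cover library-to-library spread alone, part of which may be technical.

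14-3-3 proteins are small acidic proteins that form dimers and bind phosphorylated serine or threonine sites on other proteins, which changes the activity, stability or location of the bound partner. In spinach leaves they bind phosphorylated nitrate reductase and, with divalent cations, hold it inactive. They also bind the phosphorylated tail of the plasma membrane proton pump and keep it active, and in rice they bridge florigen to the transcription factor FD. In potato, the florigen SP6A is a mobile signal for tuber formation. A transcript level does not show how much 14-3-3 protein was present or what it was bound to. A 4th gene, LOC102580127, carries 14-3-3 and 30G as synonyms in the RefSeq gene table, and it is given beside the 3 named genes as a further family gene. These 4 were found by symbol or synonym alone, so 14-3-3 genes known only by a locus number would be missed. No sequences or gene coordinates are shown, and how reads that match several 14-3-3 copies were counted is not given in the sources used here, nor is the strand setting.

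Library totals ran from 30952622 to 38235348 counts, and the 14-3-3 genes held between 607 and 18864 counts in a library, so counting error was small beside the spread between libraries. The label of the tissue was compared with marker genes, as summed CPM, counts scaled to a common library total. The 7 tuber storage genes summed to 34393 to 53826 CPM in 6 libraries, and to 15507 in AN2-1, 12224 in AN0-1 and 1745 in AN2-3. Not all of them followed the sum in every library. The starch synthase gene GBSS stood at 3735 CPM in AN0-1, above the 2091 to 3328 in AN1. Within AN0 it was still lowest in AN0-1, with 5466 and 7300 in AN0-2 and AN0-3. Within AN2 it was at 187 in AN2-3 against 1957 and 2020 in AN2-1 and AN2-2, so AN2-1 was close to AN2-2. The protease inhibitor gene LOC102577839 was highest in AN2-3, at 841, and lowest in AN0-1, at 120. Green shoot or leaf genes summed to 631 CPM over 5 genes in AN0-1 and 455 in AN2-3 against 9.71 to 86.1 in the other 7 libraries. The stolon tip and bud genes POTH15 and STBRC1B were present in all 9 libraries, and their sum was 42.1 to 51.9 CPM in AN2 and 18.1 to 24.3 in the other 6 libraries. The root marker PT1, a phosphate transporter, was at 31.3 to 51.4 CPM in AN2 and 73.6 to 99.5 in the others. The part of these markers in the AN2 comparisons below was not tested. In bulk tissue, fewer cells of a type and less RNA per cell cannot be told apart. Values without AN0-1 and AN2-3 are given beside the comparisons of the 14-3-3 genes.

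The 14-3-3 genes differed several-fold in level. Levels between genes are compared in FPKM, which divides by gene length. The highest was 34G, with a mean of 276 FPKM over the 9 libraries and a range of 173 to 449, which placed it at rank 441 among all genes. Next came 35G, with a mean of 126 FPKM, a range of 75.9 to 175 and rank 955. LOC102580127 had a mean of 57.7 FPKM, between 34.02 and 77.8, at rank 2017. The lowest was 16R, with a mean of 37.8 FPKM, a range of 16.2 to 65.4 and rank 3021. This order held in 8 libraries. In AN0-3, 16R stood above LOC102580127. The ranges of 34G and 35G met, though 34G was the higher of both in every library, and those of LOC102580127 and 16R overlapped widely.

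Among these 4 genes, 34G and 35G together held most of the summed FPKM. Of the summed FPKM of the 4 genes, 34G made up 59.2% ± 1.86 in AN0, 54.7% ± 0.88 in AN1 and 51.1% ± 1.93 in AN2 (SD, n = 3). The share of 35G was 26.0% ± 3.80, 23.9% ± 0.70 and 26.6% ± 3.60 in the same order. 16R held 7.20% ± 1.63, 6.85% ± 1.43 and 8.43% ± 1.70. These shares add to a fixed total, so a smaller share of 1 gene raises the others. The share of LOC102580127 was 7.63% ± 0.51 in AN0 against 14.6% ± 0.66 in AN1 and 13.9% ± 0.67 in AN2.

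The level of 34G, in CPM scaled by TMM factors, was 309, 434 and 562 in the AN0 libraries 1 to 3. It was 334, 202 and 308 in AN1, and 200.2, 354 and 204 in AN2. The AN0 libraries reached the highest values, but AN0-1 lay below AN1-1 and AN2-2, so no pair of treatments was separate. The means were 435 ± 127, 282 ± 70.1 and 253 ± 87.5 CPM (SD, n = 3).

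35G stood at 147, 156 and 197 CPM in AN0, at 129, 79.6 and 123 in AN1, and at 107, 175 and 78.1 in AN2. Every AN0 library lay above every AN1 library, a separation in this direction that 9.54% of all tested genes also had. AN2 held both a value near the AN0 libraries and one at the bottom of AN1. The means were 167 ± 26.5, 110.4 ± 26.8 and 120.0 ± 49.8 CPM (SD, n = 3).

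16R was at 30.1, 54.1 and 83.2 CPM in AN0, at 49.2, 19.2 and 43.6 in AN1, and at 35.5, 46.8 and 39.6 in AN2. The highest library was AN0-3 and the lowest AN1-2, and the treatments overlapped. The means were 55.8 ± 26.6, 37.3 ± 15.9 and 40.6 ± 5.69 CPM (SD, n = 3).

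LOC102580127 was lower on average in AN0 than in AN1 or AN2, at 35.6, 50.8 and 70.8 CPM. Its values were 87.3, 49.7 and 73.0 in AN1, and 51.0, 86.4 and 52.5 in AN2. These groups overlapped as well. The means were 52.4 ± 17.6, 70.0 ± 19.0 and 63.3 ± 20.0 CPM (SD, n = 3).

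**Figure D1:**
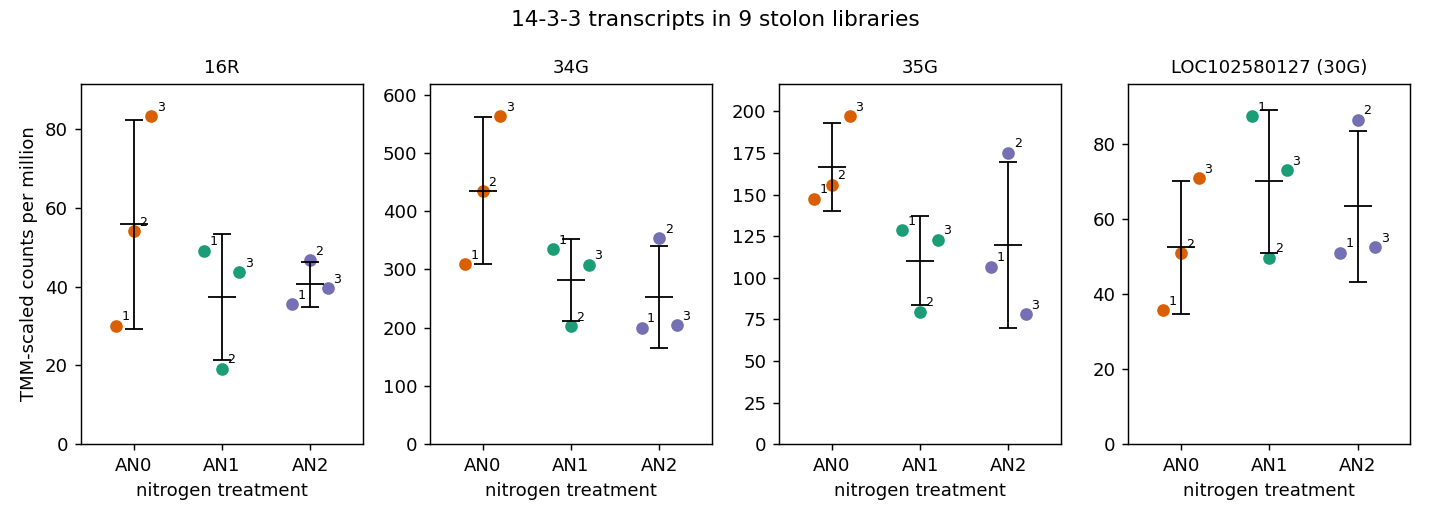
TMM-scaled CPM of 16R, 34G, 35G and LOC102580127 in the 9 libraries, by nitrogen treatment; points are libraries, and lines with bars are means and SD of 3. The AN0 libraries of 16R, 34G and 35G reach the highest values, and 35G is the only one with all AN0 points above all AN1 points.

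The same libraries were high or low for the 3 named genes. AN0-3 was the highest library for each of them, and AN1-2 the lowest AN1 library. AN0-1, the library with the most green shoot marker RNA among AN0, was the lowest AN0 library for each. AN2-3 was the lowest AN2 library for 35G only. Over the 9 libraries the spread of these genes was like that of other genes: the coefficient of variation was 40.2% for 16R, 37.1% for 34G, 30.8% for 35G and 29.2% for LOC102580127, against a median of 34.5% over all tested genes.

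Under nitrogen deficiency the fitted levels of 16R, 34G and 35G were all above those under conventional supply, by about the same amount, and none passed the test. The log2 fold change of AN0 against AN1 was 0.63 ± 0.34 (SE) for 34G, with an adjusted p of 0.561 in edgeR's quasi-likelihood test. For 35G it was 0.60 ± 0.33, with an edgeR adjusted p of 0.562. For 16R it was 0.58 ± 0.42, with an edgeR adjusted p of 0.693. The count was 0 of 3 called, in a comparison where edgeR called 10 of 21223 genes, or 0.0471%. At an unadjusted p under 0.05 it was 0 of 3, beside 10.8% of all tested genes. DESeq2, which called 3.05% of its tested genes, also called 0 of 3, as did voom with quality weights at 4.84% and limma on log2(FPKM + 1) at 0.0112%. LOC102580127 had a value of -0.42 ± 0.33 (edgeR adjusted p = 0.730).

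The intervals show what this comparison can resolve. The 95% interval of AN0 against AN1 ran from -0.15 to 1.40 for 34G, from -0.14 to 1.33 for 35G and from -0.35 to 1.51 for 16R, on the log2 scale. Without AN1-2 the 3 values were 0.42, 0.39 and 0.26 in the same gene order, and without AN0-3 they were 0.40, 0.46 and 0.17. Without AN0-1 and AN2-3 they were 0.83, 0.68 and 0.88, and edgeR's adjusted p-values were 0.357, 0.408 and 0.405. The size of the difference for 16R thus rested on single libraries, while its direction was positive under all alternatives run.

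No difference between nitrogen excess and conventional supply passed the test. AN2 against AN1 was -0.16 ± 0.34 for 34G, 0.12 ± 0.33 for 35G and 0.12 ± 0.41 for 16R, with edgeR adjusted p-values of 0.921, 0.937 and 0.953. EdgeR called 0 of 3, where it called 0.697% of all tested genes. At an unadjusted p under 0.05 there were 0 of 3, beside 13.8% of all tested genes. DESeq2, voom and limma on FPKM called 0 of 3, beside 5.37%, 24.8% and 1.75% of their tested genes. The 95% intervals ran from -0.93 to 0.61, from -0.61 to 0.85 and from -0.81 to 1.05, so differences of up to about 2-fold for 16R lay within them. The sign of each of the 3 values turned under at least 1 alternative, such as the fit on FPKM, where 34G was at 0.02. Without AN0-1 and AN2-3 the values were -0.01 for 34G, 0.37 for 35G and 0.15 for 16R (edgeR adjusted p = 0.994, 0.642 and 0.900). In this comparison the stolon tip and bud markers were higher in AN2 and the root marker lower, as given above. Of all tested genes, 13.3% had every AN2 library above every AN1 library, and 9.26% had every one below.

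Across the full nitrogen range, from deficiency to excess, the 3 named genes had lower fitted levels in AN2 than in AN0. AN2 against AN0 was -0.78 ± 0.34 for 34G, with an unadjusted p of 0.0476 and an adjusted p of 0.239 in edgeR's test. It was -0.48 ± 0.33 for 35G (edgeR adjusted p = 0.460) and -0.46 ± 0.41 for 16R (edgeR adjusted p = 0.589). EdgeR called 0 of 3 where it called 3.65% of all tested genes. At an unadjusted p under 0.05 there was 1 of 3, beside 20.4% of all tested genes. DESeq2, at 11.8% of its tested genes, and limma on FPKM, at 5.42%, also called 0 of 3. Voom with quality weights called 34G, at -1.07 with an adjusted p of 0.00765, and it called 27.7% of all tested genes. Without AN0-1 and AN2-3 the edgeR value was -0.84 for 34G, -0.31 for 35G and -0.73 for 16R (adjusted p = 0.261, 0.665 and 0.407). Single libraries set the size for 16R, which was at -0.06 without AN0-3 and -0.76 without AN0-1. 35G was at -0.24 without AN2-3 and -0.85 without AN2-2, and 34G at -0.56 without AN0-3 and -1.11 without AN2-2. The stolon tip and bud markers and the root marker separated AN2 from AN0 as well.

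The test over 3 treatments called none of the 3 genes, with edgeR adjusted p-values of 0.358 for 34G, 0.508 for 35G and 0.669 for 16R, and none at an unadjusted p under 0.05. It called 2.8% of all tested genes, and 19.1% of them had an unadjusted p under 0.05. Voom called 34G here too, along with 36.7% of all tested genes, and DESeq2, at 12.2%, and limma on FPKM, at 3.5%, called none. Without AN0-1 and AN2-3 the edgeR adjusted p-values were 0.303, 0.417 and 0.390 in the same gene order.

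**Figure D2:**
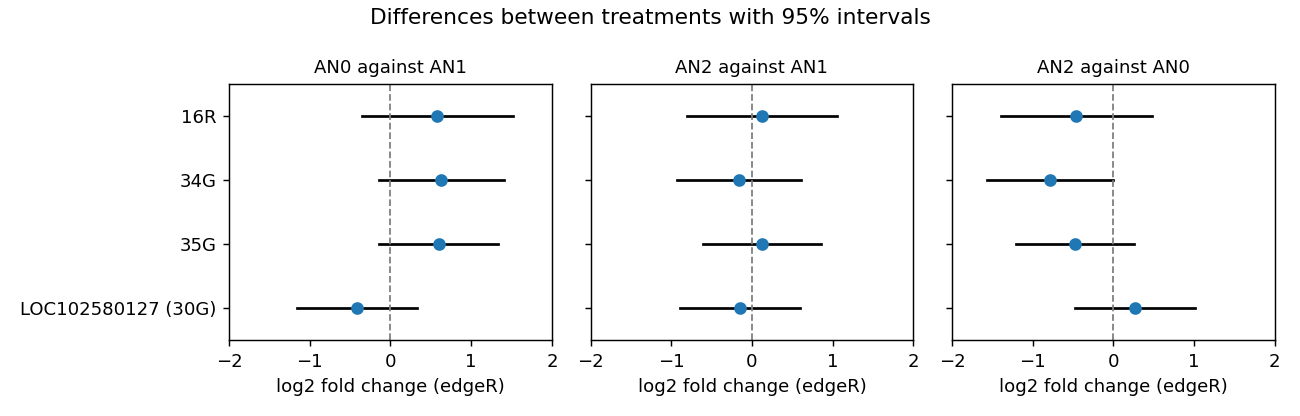
Fitted log2 fold changes (edgeR) with 95% intervals for the 4 genes in the 3 comparisons, 9 libraries in 1 fit. The interval of each gene includes 0 except that of 34G in AN2 against AN0, which runs from -1.56 to -0.01. In that comparison 20.4% of all tested genes had an unadjusted p under 0.05.

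A ratio of 2 genes within a library does not depend on how libraries are scaled, and here the family genes did not keep 1 ratio. The FPKM ratio of 34G to LOC102580127 was 8.04, 7.91 and 7.36 in the AN0 libraries. It was 3.55, 3.77 and 3.91 in AN1, and 3.64, 3.79 and 3.60 in AN2. All AN0 libraries lay apart from the other 6, including AN0-1 with its green shoot markers, and the libraries within a treatment were close. The share of other genes whose ratio to 34G separates AN0 in this way was not counted. The ratio of 34G to LOC102580127 was singled out after its values were seen.

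On the log2 scale the ratio of LOC102580127 to 34G was -2.96 ± 0.07 in AN0, -1.90 ± 0.07 in AN1 and -1.88 ± 0.04 in AN2 (SD, n = 3). AN0 differed from AN1 by -1.05 and AN2 from AN0 by 1.08, while AN2 and AN1 differed by 0.03. An exact permutation test over 3 treatments gave p = 0.025, or 0.05 adjusted over the 6 ratios among the 4 genes, where the smallest p it can give is 0.00357. Between a pair of treatments, 3 libraries against 3 cannot go below an exact two-sided p of 0.1, which AN0 reached against either other treatment.

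The ratios of LOC102580127 to the other named genes differed in the same direction. Against 35G, AN0 differed from AN1 by -1.05 and AN2 from AN0 by 0.83 (exact permutation p over 3 treatments = 0.0107, adjusted 0.0321). Against 16R the differences were -1.01 and 0.63 (exact permutation p = 0.0107, adjusted 0.0321). In neither did an AN0 library overlap with AN1 or AN2, and the share of other genes with such a separation was not counted. These 3 ratios share the values of LOC102580127 and are not independent of each other. The ratios among 16R, 34G and 35G overlapped between treatments, with exact permutation p-values of 0.264 for 34G to 16R, 0.332 for 35G to 34G and 0.850 for 35G to 16R. A ratio shows that 2 genes changed unequally and does not show which of them changed.

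The ratio to 34G was also fitted for all other tested genes with limma. For LOC102580127 the difference was -1.05 ± 0.27 in AN0 against AN1 (limma adjusted p = 0.110), where 0.0188% of genes were called. It was 0.03 in AN2 against AN1, where 0.00471% were called. In AN2 against AN0 it was 1.08 ± 0.27 (limma adjusted p = 0.0304), where 14.6% of all genes were called, so a difference relative to 34G was common there. That call was lost in 9 of 12 alternatives: without any 1 of AN0-2, AN0-3, AN1-1, AN1-3, AN2-1 and AN2-3, without AN0-1 and AN2-3 together, with the mean of the 3 named genes as the reference, and with a replicate block. The value itself stayed between 1.05 and 1.12 when single libraries were left out.

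**Figure D3:**
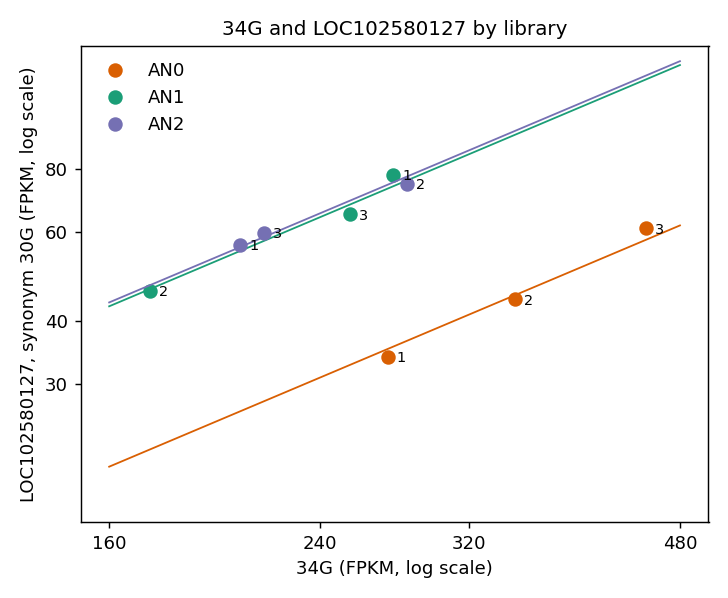
FPKM of LOC102580127 against FPKM of 34G in the 9 libraries, both axes logarithmic, coloured by nitrogen treatment and marked with the library number, with a line for each treatment's mean ratio. The AN0 libraries lie along a lower line, at 34G to LOC102580127 ratios of 7.36 to 8.04, and the lines of AN1 and AN2 nearly coincide, at ratios of 3.55 to 3.91.

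Within treatments, 34G and LOC102580127 were closely correlated. After each treatment's mean was removed, the correlation of their log2 CPM over the 9 libraries was 0.991, and 9 of the 21222 other tested genes correlated with 34G more closely. For 35G the same measure was 0.886, with 1688 genes closer, and for 16R it was 0.875, with 1892 closer. All of these genes were measured in the same libraries and scaled by the same factors, and no p is attached to these values. Whether 34G and LOC102580127 share reads, through similar sequence, was not tested, and it bears on both this correlation and their ratio.

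Over the 9 libraries, with treatment differences left in, 34G and 35G had Pearson's r = 0.909 (exact permutation p = 0.00117, adjusted over the 6 pairs 0.00704) and Spearman's rho = 0.9 (exact p = 0.00203, adjusted 0.0122). Without the 2 libraries farthest from the median, r was 0.927. For 16R and 34G, r was 0.811 (exact permutation p = 0.00750, adjusted 0.0225) and rho 0.85 (exact p = 0.00607, adjusted 0.0182), and r was 0.608 without AN0-3 and AN1-2. For 16R and 35G, r was 0.719 (exact permutation p = 0.0260, adjusted 0.0519) and rho 0.7 (exact p = 0.0433, adjusted 0.0865). This last relation rested on AN0-3 and AN1-2, without which r was 0.292. LOC102580127 had r = 0.546 with 16R, 0.377 with 34G and 0.330 with 35G, with permutation p-values adjusted to 0.189, 0.376 and 0.383. The permutations moved libraries freely across treatments. Their p-values thus cannot separate a relation between genes from treatment or library differences that many genes share.

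Among 197 tested genes with a name, those most alike each 14-3-3 gene over the 9 libraries were found by Pearson's r of log2 CPM. For 34G these were 35G at 0.909, MJE, a methyl jasmonate esterase, at 0.901 and BBR/BPC2 at 0.898. For 35G they were BBR/BPC1 at 0.929, 34G at 0.909 and MIP1 at 0.838. BBR/BPC genes encode plant transcription factors that bind GA repeats. For 16R they were NAD(P)H:QR at 0.856, RA215 at 0.842 and IAA3, an auxin-response repressor, at 0.838. None was the closest of all genes. Among the 21222 other tested genes, 35G ranked 109 in likeness to 34G, BBR/BPC1 ranked 34 in likeness to 35G, and NAD(P)H:QR ranked 164 in likeness to 16R.

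A list of 24 genes, all tested, was filled by gene name. It was meant to hold proteins that 14-3-3 proteins bind and kinases that phosphorylate 14-3-3 binding sites. Whether each listed potato protein, such as that of NIR, binds a 14-3-3 protein was not tested. In AN0 against AN1, 20 of the 24 had positive values, against 52.3% of all tested genes, and the median log2 fold change was 0.33 against 0.02. EdgeR called 0 of 24, where it called 0.0471% of all tested genes. At an unadjusted p under 0.05 there were 2 of 24, beside 10.8% of all tested genes. DESeq2 and voom called NR3 and NIR there, and limma on FPKM called 0, beside 3.05%, 4.84% and 0.0112% of their tested genes. In AN2 against AN1, 11 were positive, against 51.4% of all tested genes, and the median was -0.01 against 0.02. EdgeR called TSF as higher, where it called 0.697% of all tested genes. DESeq2 called TSF and KST1 there, voom 8 of the 24 and limma on FPKM TSF alone. These tools called 5.37%, 24.8% and 1.75% of their tested genes. In AN2 against AN0, 5 were positive, against 50.4% of all tested genes, and the median was -0.21 against 0.01 over all genes. EdgeR called TSF as higher and NR3 and NIR as lower, where it called 3.65% of all tested genes. DESeq2 called TSF, NR3, NIR, KST1 and LOC102577674, voom called 6 of the 24, and limma on FPKM called the same genes as edgeR. Their shares of all tested genes were 11.8%, 27.7% and 5.42%. Over 3 treatments edgeR called 4 of the 24, namely NR3, NIR, TSF and KST1, beside 2.8% of all tested genes. DESeq2 called 5 there, these with LOC102577674, voom 11, and limma on FPKM NR3, NIR and TSF. The tools called 12.2%, 36.7% and 3.5% of their tested genes over 3 treatments.

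Of the 4 nitrate assimilation genes, NR3 encodes nitrate reductase, the enzyme that 14-3-3 proteins inactivate in spinach, and NIR encodes nitrite reductase, which acts on its product. NR3 was at 25.8, 13.5 and 19.4 CPM in AN0, at 2.26, 3.04 and 1.71 in AN1, and at 0.88, 1.43 and 0.21 in AN2. No library of one treatment overlapped with another. Of all tested genes, 9.54% also had every AN0 library above every AN1 library. Every AN2 library lay below every AN1 library for 9.26% of them, and below every AN0 library for 10.03%. In AN2 against AN0 the log2 fold change of NR3 was -4.55 ± 0.62 with an adjusted p of 0.00965 in edgeR, and it was called in each of 19 alternatives. AN0 against AN1 was 3.07 ± 0.57 and missed the threshold in edgeR (adjusted p = 0.134), while DESeq2 and voom called it. For NIR it was -3.95 ± 0.71 in AN2 against AN0 (edgeR adjusted p = 0.0244), a call lost in 7 alternatives, among them those without AN0-1, AN0-2, AN2-1 or AN2-3, with adjusted p-values of 0.0518 to 0.0946. Without AN0-1 and AN2-3 together it was 0.0670 in edgeR. Both NR3 and the 3 named 14-3-3 genes had their highest mean in AN0, by very different amounts, and only NR3 passed the test.

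Of the 4 florigen family genes, TSF was at 9.26, 10.3 and 3.85 CPM in AN0, at 6.50, 10.4 and 7.29 in AN1, and at 38.2, 27.5 and 66.8 in AN2. All AN2 libraries lay above the other 6. Of all tested genes, 13.3% had every AN2 library above every AN1 library, and 13.0% above every AN0 library. TSF rose, with a log2 fold change of 2.50 ± 0.44 in AN2 against AN0 (edgeR adjusted p = 0.0241) and of 2.45 ± 0.44 in AN2 against AN1 (edgeR adjusted p = 0.0492). The first call was lost in 6 of 19 alternatives, among them those without AN0-1, AN0-2 or AN2-1, and the second in 11 of 19, among them those without AN0-1, AN0-2, any 1 AN1 library, AN2-1 or AN2-3. Without AN0-1 and AN2-3 together the edgeR adjusted p-values were 0.0571 and 0.0837, and neither was called. The name TSF is shared by 2 other genes of the list, and reads of similar copies could be split among them. FT was low, at 0.348 to 3.22 CPM, and its values were 1.47 ± 0.67 in AN0 against AN1 and 1.40 ± 0.67 in AN2 against AN1, which edgeR did not call (adjusted p = 0.474 and 0.405). Voom called FT in AN2 against AN1, at 2.26 with an adjusted p of 0.00935, and over 3 treatments, with an adjusted p of 0.0154.

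The other groups had few calls in edgeR. It called 0.0471%, 0.697% and 3.65% of all tested genes in AN0 against AN1, AN2 against AN1 and AN2 against AN0. Over 3 treatments it called 2.8%. The 8 kinases were calcium-dependent protein kinases and the SNF1-related kinase PKIN1, and their median log2 fold changes were 0.10 in AN0 against AN1, -0.05 in AN2 against AN1 and -0.18 in AN2 against AN0. EdgeR called 0 of 8 in each, with 0 at an unadjusted p under 0.05, beside 10.8%, 13.8% and 20.4% of all tested genes. DESeq2 and limma on FPKM also called 0 of 8 in each. They called 3.05%, 5.37% and 11.8%, and 0.0112%, 1.75% and 5.42%, of their tested genes. At such shares 0 of 8 says little about the kinases. Voom called LOC102596332, a CDPK7 gene, in AN2 against AN1, where it called 24.8% of all tested genes. The 2 plasma membrane proton pump genes had values of 0.09 for PHA1 and 0.42 for PHA2 in AN0 against AN1, and -0.15 and 0.92 in AN2 against AN1, and edgeR called neither, while voom called PHA2 in AN2 against AN1. Of 4 potassium channel genes, KST1, an inward channel known from potato guard cells, had 0, 12 and 2 counts in AN0, 4, 0 and 2 in AN1 and 55, 65 and 357 in AN2. KST1 passed edgeR's test over 3 treatments (adjusted p = 0.0479), a call lost in 11 of 16 alternatives, and neither pairwise comparison with AN2 was called by edgeR (adjusted p = 0.0939 and 0.0664). DESeq2 called KST1 in both, with adjusted p-values of 6.27e-05 against AN1 and 0.000376 against AN0, and voom called it against AN1 (adjusted p = 0.00921). In AN2 against AN1 voom also called the channel gene KCO1B, at -0.54 with an adjusted p of 0.0147. Of the sucrose and starch genes, sucrose-phosphate synthase SPS was at 0.62 in AN0 against AN1 and -0.53 in AN2 against AN0, and the starch synthase III gene LOC102577674 was at -1.27 in AN2 against AN0. EdgeR called neither, with an adjusted p of 0.0786 for the latter. DESeq2 called LOC102577674 and voom called both in AN2 against AN0, where they called 11.8% and 27.7% of their tested genes. Over 3 treatments voom called LOC102596332, PHA2, KCO1B, KST1, SPS and LOC102577674 of these groups, beside 36.7% of all tested genes. DESeq2 called KST1 and LOC102577674 there, beside 12.2% of its tested genes.

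**Figure D4:**
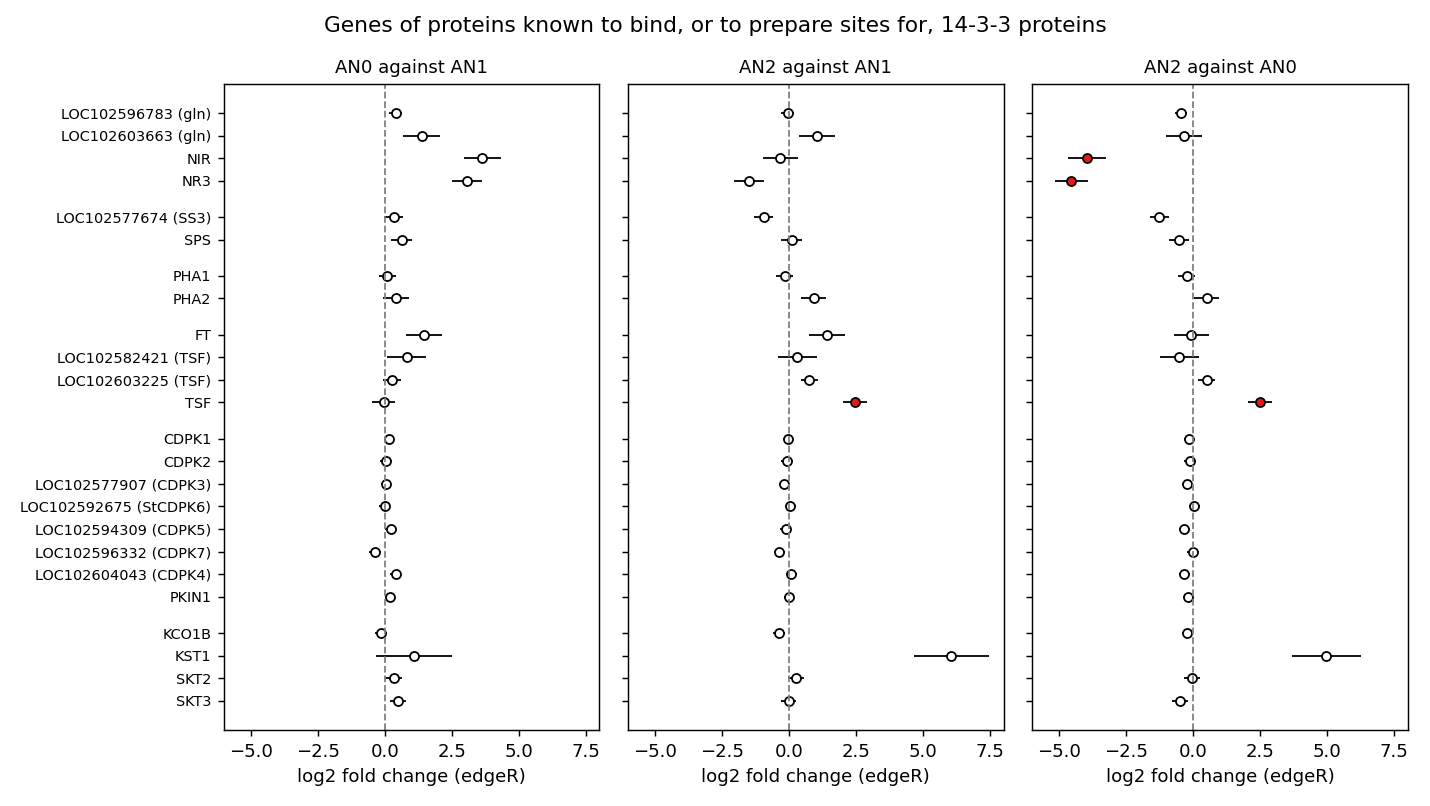
Fitted log2 fold changes (edgeR) in the 3 comparisons for the 24 genes listed by name as 14-3-3 binding partners or kinases of 14-3-3 sites. Bars show the SE on either side of each value and are not 95% intervals. The values of NR3 and NIR are the lowest in AN2 against AN0, and those of TSF and KST1 are the highest there.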

How the data were processed

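RNA from potato stolons was sequenced in 9 libraries, 3 for each nitrogen treatment. Per the labels' protocols, TRIzol served for extraction and a VAHTS Universal V6 kit for library construction. Named in the submitters' processing notes are HISAT2, HTSeq, fastp, DESeq2 and R 3.2.0, with no settings. Which genome build, annotation and strand setting were used is not given in the sources used here.

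The authors deposited raw read counts per gene and FPKM per gene. The deposited FPKM equals count over gene length and library total, with a largest relative difference of 1.71e-07. Symbols came from a RefSeq table of the assembly SolTub_3.0, in which 25672 of 25702 gene IDs matched.

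Counts were tested with the edgeR 4.0.16 quasi-likelihood test (R 4.3.3), with TMM factors, filterByExpr (21223 genes) and a mean per treatment. Benjamini-Hochberg adjustment ran over all tested genes, and calls are adjusted p-values under 0.05. CPM used TMM-scaled totals, and log2 CPM a prior count of 2. Alternatives used DESeq2 1.42.0, and limma 3.58.1 on log2(FPKM + 1) or as voom with quality weights. Ratios and correlations were tested with exact permutations, two-sided. Replicate libraries all differed by more than sampling noise.

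Members and gene lists were chosen with earlier results of these data known. Named genes are the 14-3-3 genes, called genes of the binding-partner lists (at most 4 a comparison), nitrate reductase, a florigen gene, and for each member the 3 named genes most alike. LOC102596332, PHA1, PHA2, KCO1B, SPS, LOC102577674, GBSS and LOC102577839 were named after their values were seen. Other family genes were to be found by protein identity, which could not be applied, so LOC102580127 was taken by its synonym. The list of 14-3-3 bound transcription factors had no match.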

Additional observations from a re-analysis of the deposited data

How the results depend on the processing

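Over 171 values of the 3 named genes under alternatives, 162 kept direction and side of the threshold, 1 passed it and 8 turned sign. The one that passed was 34G in AN2 against AN0 with voom, at -1.07, and 34G over 3 treatments with voom had an adjusted p of 0.00693. All 8 sign turns were in AN2 against AN1. There, 16R ran from -0.21 to 0.37 when single libraries were left out and was at -0.19 with voom. 35G ran from -0.26 to 0.35 and was at -0.14 with voom. 34G was at 0.02 in the FPKM fits (0.0158, 0.0159, and 0.0158 without a filter), and LOC102580127 at 0.0404, 0.0413 and 0.0404, and from -0.44 to 0.0412 without single libraries. NIR ran from -0.74 to 0.27, and was at 0.00699 with the replicate block, 0.0244 with log2(FPKM + 0.1) and 0.25 with voom. In AN0 against AN1, TSF ran from -0.30 to 0.28 and was at 0.24 with voom. In AN2 against AN0, LOC102580127 ran from -0.0206 to 0.55, and FT from -0.75 to 0.36, with 0.13 without AN0-1 and AN2-3, 0.0321, 0.0148 and 0.0321 in the FPKM fits and 0.88 with voom. FPKM values carry no TMM factors, and with them the median of all genes shifted by 0.15 in AN2 against AN1 and 0.18 in AN2 against AN0.

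Counts of called genes moved most. AN0 against AN1, 10 in the main test, gave 656 with DESeq2, 1027 with voom, 0 with only the 2 groups, 0 with the replicate block, 0 if AN0-1 and AN2-3 were dropped, and 2, 3 and 2 in the FPKM fits. Without single libraries it gave 0 to 109. AN2 against AN1, at 148, gave 1235, 5260, 45, 5 and 15 in that order, then 311, 247 and 317, and 0 to 367. AN2 against AN0, at 774, gave 2726, 5882, 119, 166 and 296, and 110.0 to 1077. Over 3 treatments the 595 calls became 2810 with DESeq2, 7799 with voom, 101 with the block, 220.0 without both libraries, and 85 to 793. The split of higher and lower calls in AN2 against AN1 was 137 to 11 in edgeR, 930 to 305 in DESeq2 and 2976 to 2284 with voom. In AN2 against AN0 it was 498 to 276 in edgeR, and 2878 to 3004 with voom. The cause was not tested.

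The log2 ratio of LOC102580127 to 34G, an alternative set chosen after seeing the data, was 1.08 in AN2 against AN0 with the replicate block (limma adjusted p = 0.112), 0.85 against the mean of the 3 named genes (0.114) and 1.04 without AN0-1 and AN2-3 (0.0958). It ran from 1.05 to 1.12 without single libraries. In AN2 against AN1 it was -0.19 against the mean, and ran from -0.00738 to 0.0630. With the replicate block, AN0 against AN1 was 0.59 for 34G, 0.59 for 35G and 0.54 for 16R (edgeR adjusted p = 0.805, 0.796 and 0.870). Libraries with the same number did not deviate together, with correlations of -0.472 to 0.0830 over 9 pairs. No pairing by number was seen, but a weak one could be hidden by the spread between replicate libraries.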
